A study of Mus musculus with 8 samples.

Results

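The troponin and tropomyosin genes encode the calcium switch of the thin filament of striated muscle, and here they were followed in hearts of mouse embryos. They are 10 genes (Tnnc1, Tnnc2, Tnni1, Tnni2, Tnni3, Tnnt1, Tnnt2, Tnnt3, Tpm1 and Tpm2) out of 19096 genes that could be named on the array. Every non-control probe whose accession belongs to 1 of these genes was kept, which gave 17 of 41174 probes. The hearts came from 4 WT and 4 whole-body germ-line SIRT1 KO embryos at E18.5, 1 heart per array, on the C57BL/6 background (C57BL/6J in the study's text), with mice kept on chow and untreated. The labels name no other allele, both genotypes came from heterozygous crosses, and hearts were taken from either sex. RNA of the whole heart was hybridized in one color to an Agilent mouse array, and the values below are log2 of the processed spot intensity minus the 75th percentile of the same array, so that 0 marks the 75th percentile and a negative value a dimmer probe.

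A contraction starts when calcium binds troponin C. Troponin C then draws troponin I away from actin, and troponin T passes the movement on to tropomyosin, a coiled coil that lies along the actin filament and uncovers the myosin-binding sites as it shifts. Each subunit exists as cardiac, slow skeletal and fast skeletal isoforms, except that the cardiac troponin C also serves slow skeletal muscle. The fetal rodent heart uses the slow skeletal troponin I together with the cardiac form, and the slow form is replaced by the cardiac form around and after birth. At E18.5 both are therefore expected in the normal heart, whereas the fast skeletal isoforms are known mainly from skeletal muscle.

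The arrays detected 24959 to 25755 probes above background in WT and 24497 to 26737 in SIRT1 KO hearts, without saturated spots, and their 75th percentile was 939 to 1033 intensity units in WT and 777 to 906 in SIRT1 KO. All WT arrays lie on 1 slide and all SIRT1 KO arrays on another, scanned on another day, so that for every value below the genotype cannot be told apart from the slide and its scan day. Neither probe of the targeted gene was called lower in the hearts labelled SIRT1 KO. Its brighter probe (A_52_P358612) was higher there by 0.54 on the log2 scale (limma SE 0.11, adjusted p = 0.0323; past the threshold under 7 of 18 alternatives and in 2 of 8 fits with 1 heart left out), whereas A_51_P141152 differed by -0.11 (limma SE 0.11, adjusted p = 0.589). Where these probes lie relative to the deleted part was not analysed, so they do not check the labels, and "SIRT1 KO" stands below for the hearts labelled so. All 14 cardiomyocyte markers followed, among them Myh6, Myl2 and Ttn, were detected well enough to be tested.

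The region just before the start of transcription is shown for 3 troponin genes, chosen because Tnnc1 and Tnnt2 encode cardiac subunits while Tnnc2 encodes the fast skeletal counterpart of Tnnc1 and had the highest fitted difference of all member probes. Each sequence is RefSeq's, holds the 150 bases before the start and reads 5′ to 3′. Capitals mark the matches of 3 motifs searched on both strands, the E-box CANNTG of myogenic and other basic helix-loop-helix factors, the MCAT core GGAATG (or its complement CATTCC) of TEAD factors, and the TATA box TATAAA (or TTTATA).
Tnnc1, GRCm38.p6 chr14:31208162-31208311, plus strand: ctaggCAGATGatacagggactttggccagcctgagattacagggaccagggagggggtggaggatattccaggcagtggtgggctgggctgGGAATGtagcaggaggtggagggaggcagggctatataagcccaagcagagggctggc
Tnnt2, GRCm38.p6 chr1:135836184-135836333, plus strand: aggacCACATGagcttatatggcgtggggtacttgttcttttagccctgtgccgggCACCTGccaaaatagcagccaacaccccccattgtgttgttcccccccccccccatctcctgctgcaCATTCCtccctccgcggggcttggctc
Tnnc2, GRCm38.p6 chr2:164779735-164779884, minus strand: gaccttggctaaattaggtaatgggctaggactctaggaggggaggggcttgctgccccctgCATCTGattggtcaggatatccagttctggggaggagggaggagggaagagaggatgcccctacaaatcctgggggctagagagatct

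The Tnnc1 window held 1 E-box and 1 MCAT core, the Tnnt2 window held 2 E-boxes and 1 MCAT core, and the Tnnc2 window held 1 E-box. None of these 3 windows held TATAAA or TTTATA. Other TATA-like letters were not searched, and the Tnnc1 window holds tatataa near its end. Over all 32851 promoter windows of the same length the E-box letters were found in 47.7%, the MCAT core in 7.59% and TATAAA or TTTATA in 7.57%. Windows were found for 8 of the 10 genes, all but Tnni2 and Tnnt3. Of the windows not shown, Tnni1 held 2 E-boxes, Tnni3 held 1, Tpm1 held 1 MCAT core, Tnnt1 held 1 TATA match and Tpm2 held none of the 3 motifs. These are matches of letters and say nothing on what binds there.

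Across the 10 genes, 1 probe passed the test between genotypes. Tnni2, the fast skeletal troponin I, was higher in the SIRT1 KO hearts by 0.62 on the log2 scale. The cardiac subunits, the slow skeletal subunits and the tropomyosins had no probe past the threshold. Of the 17 probes, 16 were well above background on all 8 arrays and were tested. Of these 16 tested probes 1 was called at an adjusted p under 0.05 in limma, against a background of 4.88% of the 25616 probes tested, and that probe was higher, which 3.97% of all probes were. Counted by gene on the brightest probe, the background was 4.58% of 13594 genes. An unadjusted p under 0.05 was reached by 3 of the 16 (Tnnt2, Tnnc2 and Tnni2), against 21.5% of all probes. The genotypes did not overlap for 1 of the 16, against 13.7% of all probes. Read against these backgrounds, the counts of the members are of the order found over the whole array. The fitted difference was above 0 for 8 and below 0 for 8 of the 16 probes, with a median of 0.01 against 0.01 over all probes tested. This split follows the scaling: with the arrays scaled to their medians 4 of the 16 were above 0 and with no scaling 3, while the median over all probes tested moved to -0.12 and -0.21. The 95% confidence interval reached 0.24 to either side of the difference in the median over these probes.

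**Figure D1:**
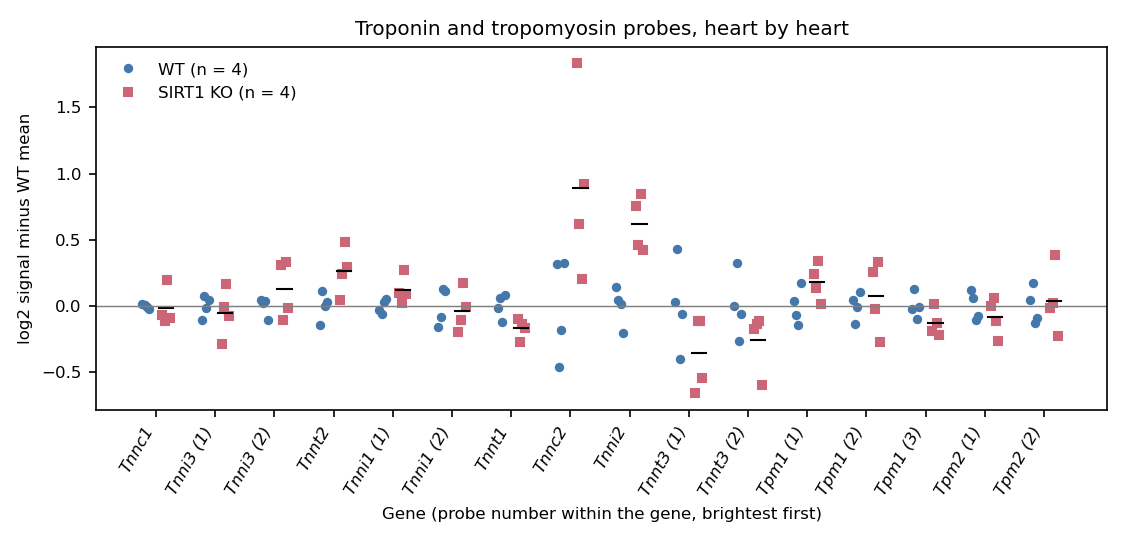
Log2 signal of each tested troponin and tropomyosin probe in each heart, with the WT mean of that probe subtracted. Circles are the 4 WT hearts, squares the 4 SIRT1 KO hearts and bars the SIRT1 KO means; genes with several probes are numbered from the brightest. The SIRT1 KO squares lie clear of the WT circles for Tnni2 alone, and Tnnc2 has the widest spread.

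No cardiac troponin probe passed the test, and the largest of their fitted differences was that of Tnnt2. Tnnc1 (A_51_P461894), the troponin C of heart and slow muscle, read 6.56, 6.55, 6.53 and 6.52 in the WT hearts and 6.47, 6.43, 6.74 and 6.45 in the SIRT1 KO hearts. The WT hearts lay within a narrow band, and the SIRT1 KO hearts fell on both sides of it. The difference was -0.02 (SE 0.08, 95% confidence interval -0.21 to 0.17, adjusted p = 0.926 from limma).

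Tnni3, the cardiac troponin I whose N-terminal extension is phosphorylated by protein kinase A, was measured by 2 probes. On the brighter (A_52_P563123) the WT hearts read 7.42, 7.60, 7.51 and 7.57 and the SIRT1 KO hearts 7.24, 7.52, 7.70 and 7.45. SIRT1 KO replicate 1 was below and replicate 3 above every WT heart, and the difference was -0.05 (SE 0.10, interval -0.28 to 0.18, adjusted p = 0.811 from limma). The second probe (A_51_P386983) read between 6.71 and 6.86 in the WT hearts and between 6.70 and 7.15 in the SIRT1 KO hearts, a difference of 0.13 (SE 0.11, interval -0.12 to 0.38, adjusted p = 0.539 from limma), and leaving out 1 heart moved it between 0.06 (SIRT1 KO replicate 3) and 0.21 (SIRT1 KO replicate 2). The probes of this gene thus gave fitted differences of opposite sign, both with intervals that include 0.

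Tnnt2 (A_51_P338262), the cardiac troponin T, read 7.34, 7.60, 7.48 and 7.51 in the WT hearts. In the SIRT1 KO hearts it read 7.53, 7.72, 7.97 and 7.78. Of the SIRT1 KO hearts, replicate 1 lay among the WT values and the others above all of them. The means were 7.48 ± 0.11 and 7.75 ± 0.18 (SD, n = 4 each), a 1.20-fold difference (log2 0.27, SE 0.10, interval 0.03 to 0.50). In limma its p was 0.0303 before and 0.183 after adjustment, and the exact two-sided permutation test gave p = 0.0571, where 0.0286 is the smallest that 4 against 4 can give. Without any scaling between arrays the difference was 0.05, and under none of the 18 alternatives did it pass the threshold.

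The slow skeletal subunits, which the fetal heart shares with slow muscle, showed no difference that passed the test. Tnni1, the slow skeletal troponin I of the fetal heart, read 7.10, 7.07, 7.17 and 7.19 in the WT hearts and 7.23, 7.15, 7.40 and 7.22 in the SIRT1 KO hearts on its brighter probe (A_52_P657360). Here 3 of the SIRT1 KO hearts were above every WT heart and SIRT1 KO replicate 2 was among the WT hearts. The difference was 0.12 (SE 0.08, interval -0.05 to 0.29, adjusted p = 0.402 from limma), which turned to -0.01 with median scaling and -0.10 without scaling. Leaving out 1 heart moved this difference between 0.07 (SIRT1 KO replicate 3) and 0.15 (SIRT1 KO replicate 2). The second probe (A_51_P435704) gave -0.04 (SE 0.11, interval -0.27 to 0.20, adjusted p = 0.875 from limma).

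Tnnt1 (A_51_P362627), the slow skeletal troponin T, read 3.39, 3.46, 3.28 and 3.48 in the WT hearts and 3.30, 3.13, 3.27 and 3.24 in the SIRT1 KO hearts. SIRT1 KO replicate 1 was above 1 WT heart, WT replicate 3, and the other SIRT1 KO hearts were below all WT hearts. The difference was -0.17 (SE 0.08, interval -0.34 to 0.01, adjusted p = 0.246 from limma, exact two-sided permutation p = 0.0571). It passed the threshold only when the arrays were not scaled (log2 -0.39, adjusted p = 0.0208 from limma), a setting in which the median over all probes was -0.21.

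The fitted differences of the fast skeletal subunits ranged from -0.36 to 0.89, and their probes did not share a direction. Tnni2 was higher in the SIRT1 KO hearts, Tnnc2 had the highest fitted difference but overlapping hearts, and both probes of Tnnt3 had fitted differences below 0 that did not pass the test. Because whole hearts were measured, a change in the number of cells that express such a gene and a change of its RNA per cell cannot be told apart.

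Tnni2 (A_51_P355122), the fast skeletal troponin I, read 2.01, 1.92, 1.89 and 1.66 in the WT hearts. In the SIRT1 KO hearts it read 2.63, 2.33, 2.71 and 2.30. All 4 SIRT1 KO hearts were above all 4 WT hearts, and the lowest SIRT1 KO value (2.30) was above the highest WT value (2.01). The means were 1.87 ± 0.15 and 2.49 ± 0.21 (SD, n = 4 each), a 1.54-fold difference (95% confidence interval 1.27 to 1.86). On the log2 scale it was 0.62 with SE 0.12, the adjusted p from limma was 0.0225, and the exact two-sided permutation test gave 0.0286, its smallest possible value. The direction was the same under all 18 alternatives, with values from 0.40 to 0.69, and the call was kept under 11 of them. It was lost with median scaling (0.49, adjusted p = 0.0545), without scaling (0.40, adjusted p = 0.0507) and in the methods' analysis of variance (0.62, adjusted p = 0.0740), and, in limma, without WT replicate 2 (adjusted p = 0.0575), WT replicate 3 (0.0626), WT replicate 4 (0.0564) or SIRT1 KO replicate 1 (0.0639).

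**Figure D2:**
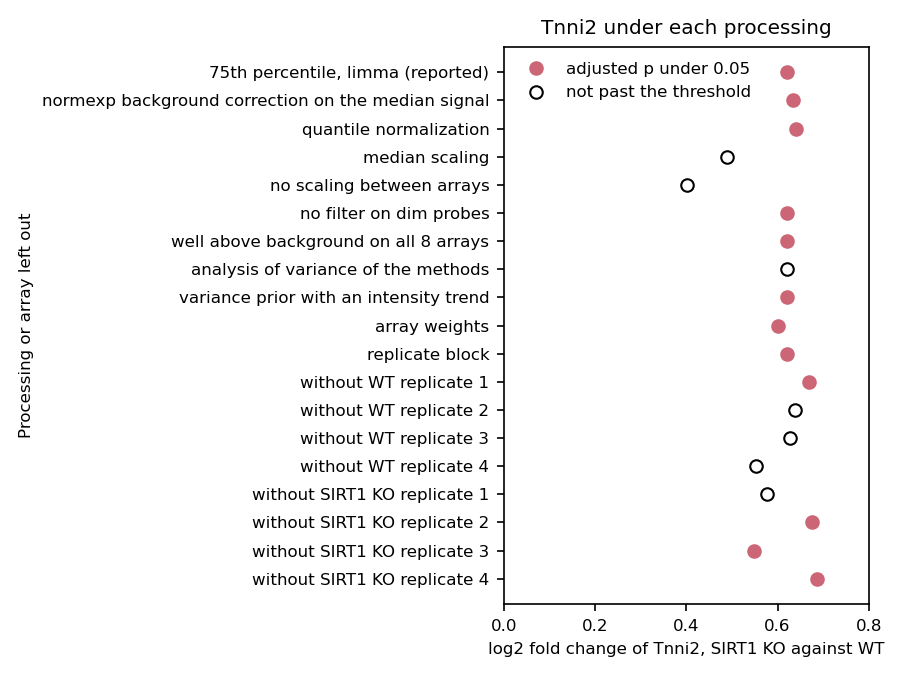
Log2 fold change of Tnni2, SIRT1 KO against WT, as reported (top) and under each alternative processing or with 1 array left out. Filled points have an adjusted p under 0.05 and open points do not; all lie between 0.40 and 0.69, and 11 of the 18 alternatives are filled.

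Tnnc2 (A_51_P353232), the fast skeletal troponin C, was a dim probe whose hearts differed widely. The WT hearts read -3.25, -4.04, -3.76 and -3.25. The SIRT1 KO hearts read -1.74, -2.96, -3.37 and -2.66. SIRT1 KO replicate 1 stood highest, and replicate 3 was below WT replicates 1 and 4. The means were -3.57 ± 0.39 and -2.68 ± 0.69 (SD, n = 4 each), a 1.86-fold difference with a confidence interval from 1.11 to 3.11 (log2 0.89, SE 0.33, unadjusted p = 0.0241 and adjusted p = 0.165 in limma, exact permutation p = 0.0857). The log2 difference was 0.58 without SIRT1 KO replicate 1 and 0.47 with normexp background correction, and it did not pass the threshold under any of the 18 alternatives.

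Tnnt3, the fast skeletal troponin T, was read by 2 dim probes. On the brighter (A_52_P622418) the WT hearts read -2.72, -2.32, -3.15 and -2.81 and the SIRT1 KO hearts -3.41, -2.87, -2.87 and -3.29. The genotypes overlapped, with WT replicate 3 below 2 of the SIRT1 KO hearts. The differences were -0.36 (SE 0.19, interval -0.79 to 0.08, adjusted p = 0.318 from limma) on this probe and -0.25 (SE 0.15, interval -0.59 to 0.08, adjusted p = 0.359 from limma) on the other (A_51_P345699). Leaving out WT replicate 2 gave -0.21 and -0.15, leaving out SIRT1 KO replicate 4 gave -0.30 and -0.14, and normexp background correction gave -0.12 and -0.05. Whether the difference of Tnnt3 departs from that of Tnni2 was not tested.

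**Figure D3:**
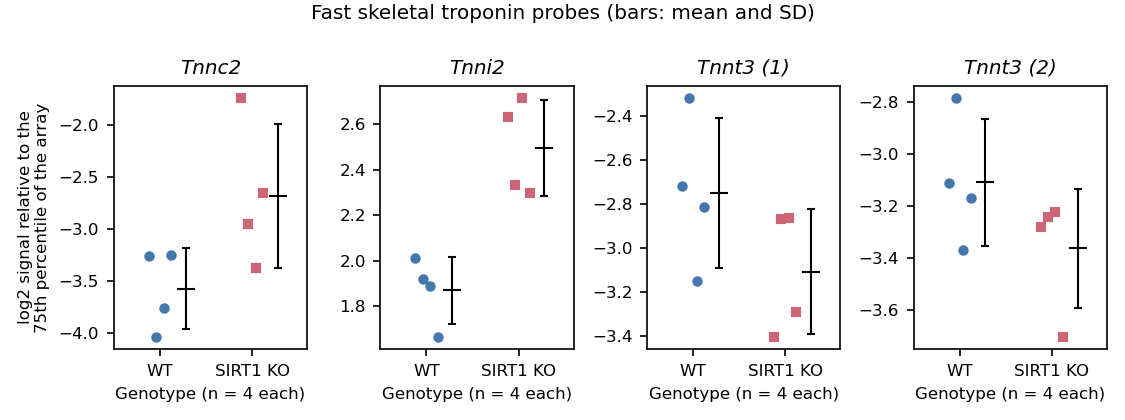
Log2 signal relative to the array's 75th percentile for the 4 fast skeletal troponin probes, each panel on its own scale, in WT (circles) and SIRT1 KO (squares) hearts, with mean and SD (n = 4 each). Only the Tnni2 panel has no overlap, between 2.01 and 2.30; in the Tnnc2 panel SIRT1 KO replicate 1 lies at -1.74, above all other hearts.

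Since fast skeletal isoforms are best known from skeletal muscle, the other skeletal muscle genes were followed in the same hearts. Of 24 such genes, 13 were tested and 2 rose in limma, against a background of 4.58% of all genes called in either direction: Cacna1s, the calcium channel subunit of the skeletal muscle triad (log2 0.49, SE 0.10, adjusted p = 0.0256), and Myog, the myogenic regulator myogenin (log2 0.52, SE 0.11, adjusted p = 0.0291). Myog was near background, and 3 of the 4 WT arrays and all 4 SIRT1 KO arrays were well above it. Cacna1s passed the threshold under 8 of 18 alternatives and Myog under 5 of 17. With 1 heart left out, Cacna1s lost the call without WT replicate 1 or 3 or SIRT1 KO replicate 1 or 2 (adjusted p between 0.0506 and 0.0716 in limma), and Myog lost it without WT replicate 2, 3 or 4 or SIRT1 KO replicate 1 or 2 (between 0.0589 and 0.0891). The fitted difference was above 0 for 9 and below 0 for 4 of the 13, with a median of 0.07 against -0.01 over all genes tested. The defining genes Myod1, Myf5, Myf6, Pax7, Myh2, Actn3, Ryr1, Mybpc1, Cacng1, Chrna1 and Chrnd were too dim to be tested. The log2 of the summed signal of the list was between 7.65 and 7.76 in the WT hearts and between 7.60 and 7.93 in the SIRT1 KO hearts, although this sum also holds the myosin heavy chains Myh4 and Myh8, which are close paralogs of the cardiac Myh6 and Myh7. SIRT1 KO replicate 1, the heart with the highest Tnnc2, also had the highest Myog (-4.69) and the highest Chrng, a fetal subunit of the muscle acetylcholine receptor (-2.49), whereas Tnni2 was highest in SIRT1 KO replicate 3. SIRT1 KO replicate 1 had the lowest Myl1 of all hearts (3.46), a gene of a fast myosin light chain. It also had the lowest Cacna1s of the SIRT1 KO hearts (-2.29). The atrial gene Myl4 was likewise lowest in that heart (5.93), and both Myl1 (5.44) and Myl4 (6.77) were highest in WT replicate 2. Which cells gave the Myl1 signal was not tested. Pvalb, which encodes parvalbumin, read -6.45 in SIRT1 KO replicate 1. The dimmest signal well above background on that array was -5.57, so the rank of Pvalb cannot be read. Between genotypes, Chrng gave 0.78 (adjusted p = 0.0517 from limma) and Myl1 gave -0.68 (adjusted p = 0.326 from limma), neither past the threshold. The part of skeletal muscle RNA in the Tnni2 and Tnnc2 values was not tested.

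No tropomyosin probe passed the test between genotypes. Tpm1, which gives the main striated muscle tropomyosin of the heart and many other splice forms, had 4 probes listed under 3 transcript records, and where on the transcripts they lie was not analysed. The brightest (A_51_P325173) read 7.83, 7.72, 7.65 and 7.97 in the WT hearts and 8.03, 7.93, 8.13 and 7.81 in the SIRT1 KO hearts, with SIRT1 KO replicates 1 and 3 above all WT hearts. The difference was 0.18 (SE 0.10, interval -0.04 to 0.41, adjusted p = 0.322 from limma), and it was -0.04 without scaling. A second probe (A_52_P532910) gave 0.07 (SE 0.14, interval -0.23 to 0.38, adjusted p = 0.793 from limma). Another (A_52_P44949), listed under the same record as the second, gave -0.13 (SE 0.08, interval -0.32 to 0.06, adjusted p = 0.394 from limma), and passed the threshold only without scaling (-0.35, adjusted p = 0.0417). The last (A_51_P378371) was well above background on 0 of 8 arrays, so no fold is given for it.

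Tpm2, the beta tropomyosin, read 2.25, 2.19, 2.02 and 2.06 in the WT hearts and 2.13, 2.19, 2.02 and 1.86 in the SIRT1 KO hearts on its brighter probe (A_52_P418477). The genotypes overlapped, with SIRT1 KO replicate 4 lowest of all hearts, and the difference was -0.08 (SE 0.09, interval -0.29 to 0.13, adjusted p = 0.661 from limma), and leaving out 1 heart moved it between -0.13 (SIRT1 KO replicate 2) and -0.02 (SIRT1 KO replicate 4). The other Tpm2 probe (A_52_P315976) gave 0.04 (SE 0.13, interval -0.26 to 0.34, adjusted p = 0.887 from limma), which was below 0 with median scaling (-0.09) and without scaling (-0.18). The remaining tropomyosin genes, Tpm3 and Tpm4, which also serve nonmuscle actin filaments, gave -0.01 (SE 0.08, adjusted p = 0.962) and -0.04 (SE 0.08, adjusted p = 0.803 from limma) on their brightest probes.

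**Figure D4:**
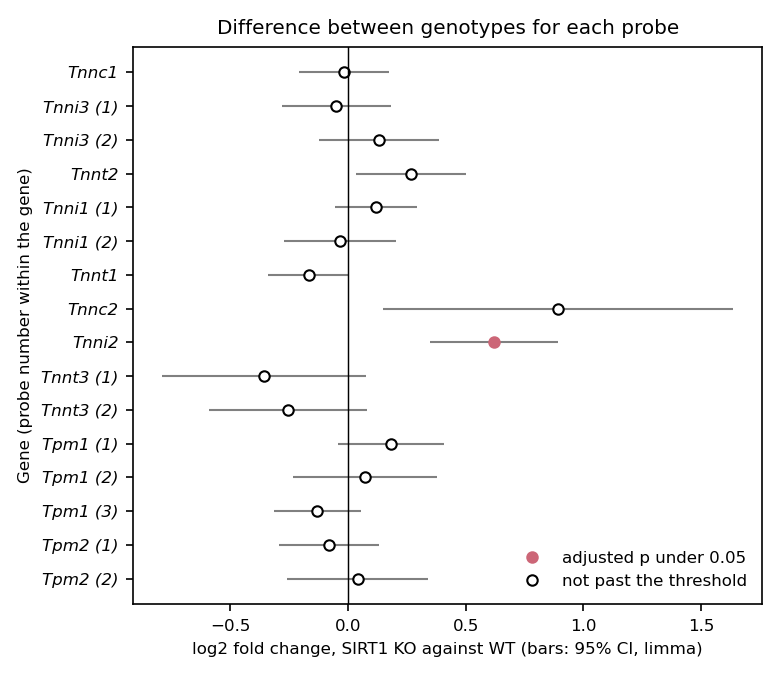
Log2 fold change, SIRT1 KO against WT, of the 16 tested probes with the 95% confidence interval from limma. The filled point is Tnni2, the one probe past the threshold; the intervals of Tnnt2 (0.03 to 0.50) and Tnnc2 (0.15 to 1.64) also exclude 0 without passing the correction.

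Isoforms of 1 subunit were set against each other on the same array, where scaling cancels. A difference between probes has no meaning of its own as a ratio of transcripts, so that the change between genotypes alone is described, and no test was made. Tnnt2 minus Tnnt1, the cardiac against the slow skeletal troponin T, was 3.95, 4.14, 4.20 and 4.03 in the WT hearts and 4.23, 4.59, 4.70 and 4.54 in the SIRT1 KO hearts. The lowest SIRT1 KO value was just above the highest WT value, and the means of 4.08 ± 0.11 and 4.51 ± 0.20 (SD, n = 4 each) differed by 0.43. The separation joins the values of both probes given above, neither of which passed on its own. Among single probes the genotypes did not overlap for 13.7% of all tested. How often pairs of probes separate in this way was not computed.

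The other pairs overlapped. Tnni3 minus Tnni1, which reads the fetal exchange of troponin I, was 0.40 ± 0.09 in the WT hearts and 0.23 ± 0.15 in the SIRT1 KO hearts (SD, n = 4 each), a change of -0.17. That change was -0.04 with normexp background correction, -0.00 with the mean over both probes of each gene, and -0.10 when SIRT1 KO replicate 1 was left out. Tnnc1 minus Tnnc2 changed by -0.91, from 10.1 ± 0.39 to 9.20 ± 0.78, with SIRT1 KO replicate 1 lowest; the change was -0.58 without that heart and -0.57 with normexp. Tpm1 minus Tpm2 changed by 0.26, from 5.66 ± 0.17 to 5.93 ± 0.15, and by 0.06 with the mean over the detected probes.

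**Figure D5:**
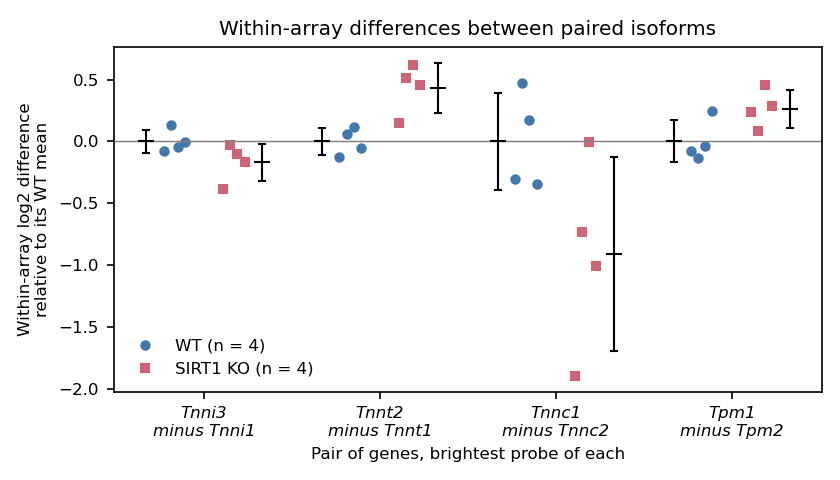
Within-array log2 difference between the brightest probes of 2 isoforms, with the WT mean of each pair subtracted, in WT (circles) and SIRT1 KO (squares) hearts, with mean and SD (n = 4 each). Tnnt2 minus Tnnt1 is 0.43 higher in the SIRT1 KO hearts without overlap, and the other pairs overlap. How often other pairs of probes separate was not computed.

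The hearts of 1 genotype did not vary alike. The median SD over the 16 probes was 0.11 in the WT hearts and 0.18 in the SIRT1 KO hearts. SIRT1 KO replicate 3 was the highest of its genotype for 12 of the 16 probes and replicate 4 for 0 of them, and replicate 4 was the lowest for 7. Such counts were not made over all probes. Replicate 3 was also the array with the lowest 75th percentile, 777 intensity units, and the part of this in its values was not tested. Without it the Tnni2 difference was 0.55 and still past the threshold (adjusted p = 0.0356 from limma).

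The genes that share the thin filament with these proteins were read from a list of 26, all of which were tested. Of these 1 fell and none rose in limma, a share near the background of 4.58% of all genes. It was Neb, nebulin, the filament ruler of skeletal muscle, whose level is low in the heart. Its signal was -3.62 ± 0.19 in the WT and -4.43 ± 0.15 in the SIRT1 KO hearts (SD, n = 4 each), a log2 difference of -0.81 (SE 0.12, adjusted p = 0.00622), and its second probe gave -0.57 (adjusted p = 0.0133 from limma). Neb passed the threshold under 17 of 18 alternatives on either probe and lost it with normexp background correction (-0.21, adjusted p = 0.105, and on the second probe -0.07, adjusted p = 0.569). Next by p were Actb, a cytoplasmic actin (0.35, adjusted p = 0.0735), and Nebl, the cardiac nebulin relative nebulette (-0.31, adjusted p = 0.0893). The fitted difference was above 0 for 10 and below 0 for 16 of the 26, with a median of -0.01 against -0.01 over all genes tested.

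Marker lists of other cells that a heart sample can hold were read beside the members. The lists share genes, so their counts are not separate. Myl4 and Myl7 are in both the cardiomyocyte and the atrial list. Actc1 is in the cardiomyocyte and thin filament lists, and Acta2, Actg2 and Lmod1 are in the thin filament and smooth muscle lists. Of the 14 cardiomyocyte genes none passed the test, with a median of 0.09, 10 above 0 and 4 below, and the smallest p for Myh7, the fetal ventricular myosin (0.31, adjusted p = 0.136), and Ttn, titin (0.47, adjusted p = 0.137 from limma). None of the 8 atrial genes passed (median -0.21, 2 above 0 and 6 below; Sln -0.71, adjusted p = 0.384; Stard10 -0.24, adjusted p = 0.489), and the log2 of their summed signal ranged from 8.90 to 9.497 in the WT hearts and from 8.38 to 9.48 in the SIRT1 KO hearts. Of the smooth muscle genes none of the 10 tested passed (median -0.09, 1 above 0 and 9 below; Myh11 -0.24, adjusted p = 0.207; Synpo2 -0.10, adjusted p = 0.629). None of 8 fibroblast genes passed (median -0.00; Pdgfra 0.21, adjusted p = 0.127; Col1a2 -0.12, adjusted p = 0.634), nor any of 8 endothelial genes (median -0.10, all 8 below 0; Tek -0.25, adjusted p = 0.229; Kdr -0.19, adjusted p = 0.273). Of 7 erythroid genes tested 1 rose, the embryonic globin Hbb-y (0.92, SE 0.14, adjusted p = 0.00783 from limma, past the threshold under all 18 alternatives). With no scaling or median scaling these values lie lower, as the median over all probes does.

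Several of these genes lie in pairs of a troponin I and a troponin T gene. In RefSeq's order Tnni1 and Tnnt2 on chromosome 1 have 1 named gene between them, Lad1 (-0.39, SE 0.15, adjusted p = 0.191 from limma). Beside this pair lies Phlda3 (-0.10, adjusted p = 0.513 from limma). Tnnt1 and Tnni3 on chromosome 7 are direct neighbours, and Ppp1r12c beside them gave 0.19 (SE 0.08, adjusted p = 0.210 from limma). Tnni2 and Tnnt3, also on chromosome 7, have 2 genes between them, of which Lsp1, a leukocyte actin-binding protein, gave -0.16 (SE 0.08, adjusted p = 0.295 from limma) and Prr33 was not tested. Mrpl23, on the far side of Tnnt3, gave -0.15 (adjusted p = 0.322 from limma). None of the tested genes between or beside these pairs was called.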

How the data were processed

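The authors deposited the intensity of every spot of 8 one-color arrays as Agilent Feature Extraction wrote it (version 12 per the submitters' processing notes; the study's methods name an earlier one), with the background subtracted and no scaling between arrays. The authors also deposited a table of intensity values equal to the processed signal in 100% of spots (relative tolerance 1e-06). Flags per spot (well above background, saturated, outlier) were used as deposited. Here log2 of the processed signal was taken, the 75th percentile of non-control spots was subtracted per array, and outlier spots were left out. Accessions were matched to RefSeq names (28223 probes, 68.5%); each member probe is 1 spot. Those well above background on 4 or more of the 8 arrays were tested with limma 3.58.1 in R 4.3.3, with Benjamini-Hochberg adjustment over all of them at 0.05. The study's methods used an analysis of variance, tried as an alternative. Single probes were also compared by the exact two-sided permutation test. The fit was also run on simulated data with independent noise, which held no effect of slide or scan day.

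The members and gene lists were chosen with earlier results of these data known. All member probes are reported. Of each list, genes past the threshold or else the 2 with the smallest p are named, on the brightest probe. Chrng, Pvalb, Myl1, Myl4, the second Neb probe, neighbouring genes and genes called only under an alternative were chosen after their values were seen. Labels number the hearts of each genotype 1 to 4 but give no litter, so p-values measure the spread between these hearts. The precision is limited by the number of arrays, 4 of each genotype. Alternatives covered background correction, scaling, filter, test, variance prior, array weights, probe, replicate block and leaving out each array. Python 3.11.15, numpy 2.4.6, pandas 2.3.3 and matplotlib 3.10.9 were used.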

Additional observations from a re-analysis of the deposited data

Results flagged for a closer look

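Among the 32 sets of 4 hearts (16 probes in each genotype), 2 held a heart far from the other 3, where chance alone gives about 1 in 20. SIRT1 KO replicate 3 read 6.74 for Tnnc1 (A_51_P461894), with a gap to its nearest heart of 0.854 of the range of its genotype, and SIRT1 KO replicate 4 read -3.71 for the second Tnnt3 probe (A_51_P345699), with a gap of 0.878 of the range.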

How the results depend on the processing

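Slide and scan day cannot be told apart from genotype. The planned background correction on the mean spot signal was not run, and the median signal was used in its place, chosen after seeing the data. The labels give no shared litter or batch for a replicate number, and the hearts were not treated as pairs: the correlations by number were 0.20, 0.21, 0.06 and 0.14, 1 of them under 0.1, although each heart correlated best with its own number, a hint from the data. With the replicate block 1 member probe and 1185 of all probes were called, and Cacna1s (adjusted p = 0.0530) and the Sirt1 probe A_52_P358612 (0.0645 from limma) were not. The cause of the changes below was not tested.

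Of the member probes, 1 was called as reported, 0 with median scaling and in the analysis of variance, 2 without scaling (Tnnt1 and a Tpm1 probe, both lower) and 0 to 1 with 1 heart left out. Tnni2 (reported 0.62) lost its call at 0.49 with median scaling, 0.40 without scaling, 0.62 in the analysis of variance and when any of 4 hearts was left out; over all 8 leave-one-out fits it lay between 0.55 and 0.69. Over all probes, 1250 were called as reported (81.4% higher), 2380 with normexp, 1904 with median scaling (35.5% higher), 6347 without scaling (10.04% higher), 1051 with quantile normalization (63.9% higher), 546 in the analysis of variance and 2277 with array weights. Leaving out 1 heart gave 657 (WT replicate 3) to 1825 (SIRT1 KO replicate 3). Of the thin filament partners, 1 was called as reported, 3 with normexp (Acta1, Actb and Xirp2), 2 with median scaling, 8 without scaling, 2 with an intensity trend, 2 with array weights and 2 over every probe (both Neb's). The change of Tnni3 minus Tnni1 (reported -0.17) was -0.0355 with normexp and -0.00233 with the mean over probes, and that of Tpm1 minus Tpm2 (reported 0.26) was 0.0617 with the mean over probes.

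Signs turned only for probes not called. With median scaling these were -0.00301 for Tnni3 (A_51_P386983), -0.0139 for Tnni1 (A_52_P657360), -0.0598 for Tpm1 (A_52_P532910) and -0.0920 for Tpm2 (A_52_P315976). Without scaling they were -0.0897, -0.101, -0.146 and -0.179 for the same probes and -0.0354 for Tpm1 (A_51_P325173). With normexp they were 0.00288 for Tnni3 (A_52_P563123) and -0.10 for Tpm2 (A_52_P315976), and with array weights 0.000749 for Tpm2 (A_52_P418477). With 1 heart left out, values ranged from -0.0891 to 0.0138 for Tnnc1, from -0.124 to 0.0274 for Tnni3 (A_52_P563123), from -0.104 to 0.0194 for Tnni1 (A_51_P435704), from -0.0137 to 0.189 for Tpm1 (A_52_P532910) and from -0.0739 to 0.131 for Tpm2 (A_52_P315976).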
